A study of Mus musculus with 4 samples.

Results

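Matricellular proteins are secreted into the extracellular matrix, where they change how cells attach, migrate and respond to growth factors rather than bearing load themselves. The 8 genes described here encode osteopontin (Spp1), periostin (Postn), SPARC (Sparc), its relative hevin (Sparcl1), tenascin-C (Tnc) and thrombospondins of both structural subgroups (Thbs1, Thbs2 and Thbs4). They were taken by name from the 45706 genes of the count table, and all 8 passed the filter on low counts that left 16570 genes for testing. The set was chosen by protein class and selected on the lower Spp1 level of the knockout libraries, seen in some but not all combinations of pools, so the members' differences between the genotypes are given as a description and not as a test of the set.

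In the developing heart these proteins belong to the endocardial cushions and the walls of the outflow tract, which gives rise to the aortic and pulmonary roots. Periostin is a product of cushion mesenchyme that promotes collagen maturation in the valves, and tenascin-C is laid down where cells migrate and remodel matrix. SPARC binds collagen, thrombospondin-1 can activate latent TGF-beta, and osteopontin binds integrins and CD44 through short motifs.

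Outflow tracts were dissected at embryonic day 12.5 from C57BL/6 mice, and their RNA was sequenced. The 2 groups were wild type (WT) and Sox17eKO, in which the gene of the transcription factor SOX17 was knocked out in the endothelium of the aortic root through a Cre recombinase driven by an Nfatc1 enhancer. Each group had 2 libraries, each made from a pool of 10 hearts, and whether the WT embryos carried the Cre or a floxed allele is not stated in the labels. The deletion was in endothelium while the libraries held the whole tissue, so a lower level from fewer cells of a type and one from less RNA per cell cannot be told apart. P-values measure the spread between these pools, which the tests estimate partly from other genes.

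Between 8113463 and 21883956 reads per library were assigned to genes, with WT replicate 2 the shallowest, and reads outside annotated features made up 20.4% to 22.2% of uniquely placed reads in WT and 29.5% to 34.1% in Sox17eKO. Sox17 itself was at 6.05 and 6.83 CPM (read counts scaled to library size with TMM factors) in WT replicates 1 and 2 and at 2.76 and 2.82 CPM in Sox17eKO replicates 1 and 2. Markers of cardiomyocytes, endothelium, cushion mesenchyme and smooth muscle had reads in every library, and each gene on these lists passed the filter. Of the 16570 genes tested, 886 (5.35%) passed edgeR's quasi-likelihood test with a Benjamini-Hochberg adjusted p under 0.05, the rule by which a gene is said here to have passed, risen or fallen.

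The members spanned about 2 orders of magnitude in level per length. In CPM per kilobase of exon (RPKM), Sparc was highest, with levels of 258, 264, 218 and 237 in WT replicates 1 and 2 and Sox17eKO replicates 1 and 2. Postn followed at 121, 106, 135 and 121 RPKM in the same order, and Thbs1 at 73.7, 57.1, 74.3 and 73.5 RPKM. Sparc, Postn and Thbs1 ranked 88th, 204th and 417th of 13361 protein-coding genes tested by mean RPKM. Sparcl1 ranged from 18.5 to 21.3 RPKM and Tnc from 12.0 to 17.7 RPKM. Thbs2, at 7.32 to 8.78 RPKM, and Thbs4, at 6.23 to 8.73 RPKM, overlapped and could not be ordered. Spp1 was lowest, at 3.906 and 1.996 RPKM in WT and 1.30 and 0.718 RPKM in Sox17eKO. Apart from Thbs2 and Thbs4, no neighbours in this order overlapped in their 4 values. RPKM here divides by all annotated exonic bases of a gene, which understates a gene that uses few of its exons.

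**Figure D1:**
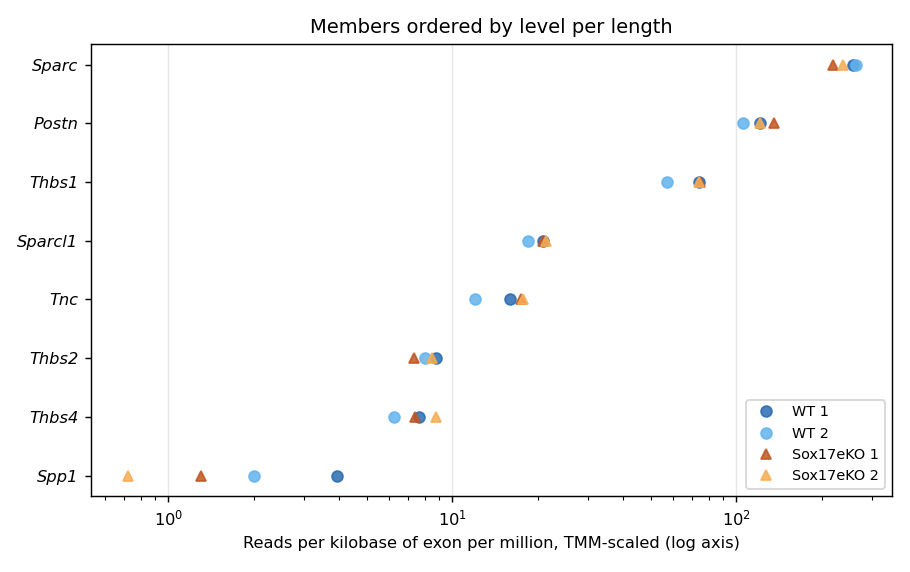
Level of each member in each pool, as TMM-scaled RPKM on a log axis, with circles for WT and triangles for Sox17eKO. Sparc lies highest and Spp1 lowest, and Spp1 is the member whose 4 points spread most, from 3.91 RPKM in WT replicate 1 to 0.718 RPKM in Sox17eKO replicate 2.

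Promoter windows were available for 6 of the 8 members, in 9 windows of 300 bases (250 before to 50 after each annotated start, from RefSeq on GRCm38.p6, all on the gene's own strand). The windows of Spp1, Postn and Tnc are shown because these members differ in both the size of their change and in what the windows hold. Capitals mark matches to the SOX core motif ATTGT on either strand (ACAAT on the printed strand) and to the TATA box letters TATAAA on the printed strand.
Spp1, chr5:104434861-104435160, plus strand: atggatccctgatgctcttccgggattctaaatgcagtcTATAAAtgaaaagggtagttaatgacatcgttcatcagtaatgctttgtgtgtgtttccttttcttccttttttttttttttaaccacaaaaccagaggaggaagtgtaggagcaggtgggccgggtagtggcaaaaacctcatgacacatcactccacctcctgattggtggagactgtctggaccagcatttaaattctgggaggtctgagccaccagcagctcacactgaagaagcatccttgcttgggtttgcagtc
Postn, chr3:54360857-54361156, plus strand: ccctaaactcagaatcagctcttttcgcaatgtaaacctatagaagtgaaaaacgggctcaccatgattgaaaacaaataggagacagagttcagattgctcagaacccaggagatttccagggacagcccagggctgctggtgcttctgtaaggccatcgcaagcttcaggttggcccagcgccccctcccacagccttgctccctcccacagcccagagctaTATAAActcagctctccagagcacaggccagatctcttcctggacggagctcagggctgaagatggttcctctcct
Tnc, chr4:64046966-64047265, minus strand: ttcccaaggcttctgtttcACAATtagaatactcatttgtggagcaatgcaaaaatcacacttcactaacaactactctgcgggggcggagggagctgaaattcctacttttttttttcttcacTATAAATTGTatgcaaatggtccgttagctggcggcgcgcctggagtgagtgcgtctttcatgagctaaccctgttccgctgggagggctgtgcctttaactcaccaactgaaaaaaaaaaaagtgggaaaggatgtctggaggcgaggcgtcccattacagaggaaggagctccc

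The Spp1 window held no ATTGT on either strand and a single TATAAA that begins 211 bases before the start. A second Spp1 window at a later annotated start (chr5:104435942-104436241) held neither motif. The Postn window shown held TATAAA 26 bases before the start and no ATTGT, and a second Postn window at an earlier start held 1 ATTGT on the opposite strand. The Tnc window held ATTGT on both strands, beginning 121 bases before the start on its own strand and 231 on the opposite strand. The first of these overlaps a TATAAA, 126 bases before the start, by 1 base, and the second is part of a match to the longer ATTGTG, which was also searched on both strands. A second Tnc window (chr4:64046887-64047186) overlaps the first and held the same own-strand ATTGT and TATAAA, not further matches. They lie 200 and 205 bases before its own start, and it held no ATTGTG. The windows of Sparc, Thbs2 and Thbs4 held none of these letters. ATTGT was present in 31% of all 32851 promoter windows, ATTGTG in 11.3% and TATAAA in 8.32%, so matches of this kind are frequent and are given only as a description.

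Spp1, which encodes osteopontin, spans chr5:104435118-104441050 on the plus strand of mm10. It was covered by 83 and 26 reads in WT replicates 1 and 2 and by 31 and 26 reads in Sox17eKO replicates 1 and 2. This gave 6.44 and 3.29 CPM in WT and 2.14 and 1.18 CPM in Sox17eKO. Both Sox17eKO pools were below both WT pools, but WT replicate 2 lay closer to Sox17eKO replicate 1 than to the other WT pool. The 95% counting intervals of these 2 pools were 2.15 to 4.82 CPM and 1.45 to 3.03 CPM, and they overlapped. The fit put Sox17eKO at 31.6% of WT, or -1.66 on the log2 scale (standard error 0.35, 95% interval -2.40 to -0.93, n = 2 pools each).

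The size of the Spp1 difference depended on which pools were set against each other. Against WT replicate 1, Sox17eKO replicate 2 had a ratio of 0.184 (95% exact counting interval 0.114 to 0.289) and Sox17eKO replicate 1 one of 0.332 (0.212 to 0.507). Against WT replicate 2, Sox17eKO replicate 2 had a ratio of 0.36 (0.201 to 0.645). For Sox17eKO replicate 1 over WT replicate 2 the ratio was 0.65 with an interval of 0.374 to 1.14, so this pair did not differ beyond counting error. The WT pools differed from each other by a ratio of 1.96 (1.25 to 3.17) and the Sox17eKO pools by 1.81 (1.04 to 3.17), both beyond counting error. Without WT replicate 1 the log2 fold change was -1.04, and without Sox17eKO replicate 2 it was -1.25. In neither fit did Spp1 pass, although without Sox17eKO replicate 2 it did when the filter on low counts was applied again to the 3 libraries left. The predicted transcript Gm42793 overlaps the 5' part of Spp1 on the same strand and had 0, 0, 0 and 1 reads. Reads in bases shared by both genes may have been set aside as ambiguous, and the counting mode is not given in the sources used here.

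**Figure D2:**
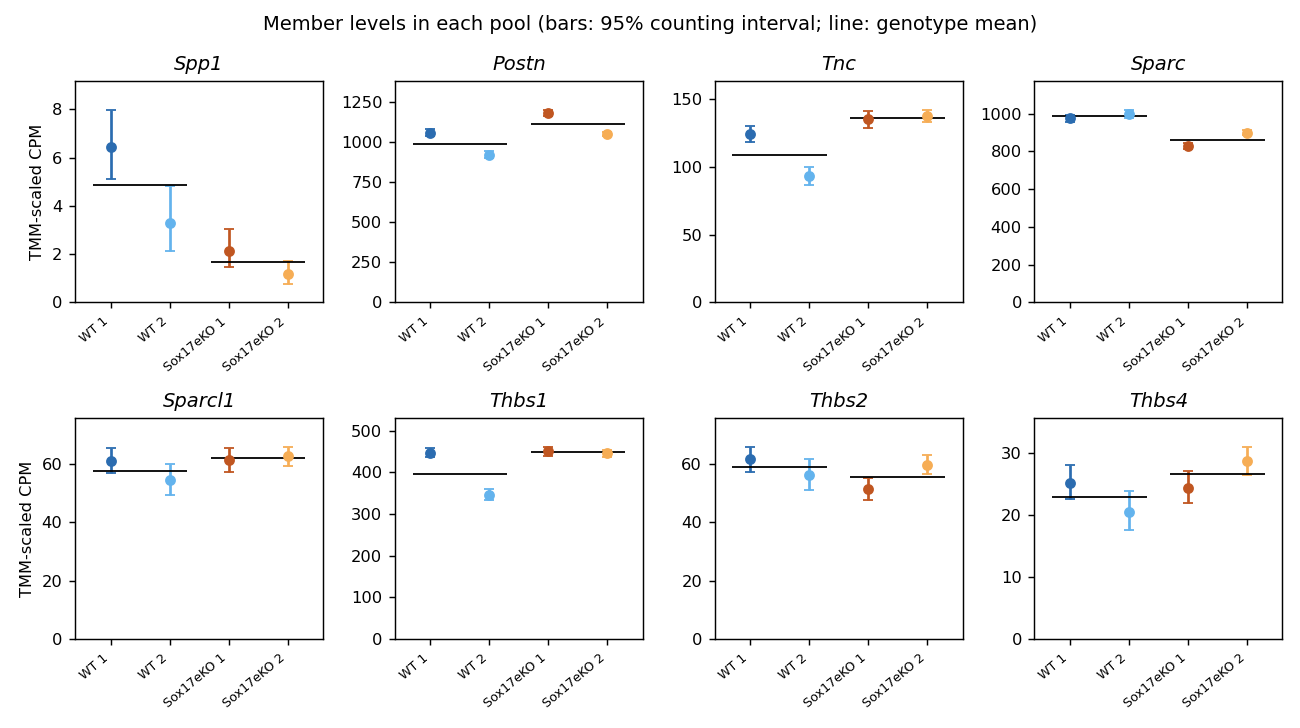
TMM-scaled CPM of each member in each of the 4 pools, on linear axes from 0, with 95% exact Poisson counting intervals and a line at each genotype's mean. Spp1 steps down from 6.44 CPM in WT replicate 1 to 1.18 CPM in Sox17eKO replicate 2. In 5 of the 8 members WT replicate 2 is the lowest point, an order whose share over all genes was not counted.

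Postn, which encodes periostin, spans chr3:54361109-54391037 on the plus strand. Its level was 1058 and 920 CPM in WT and 1178 and 1050 CPM in Sox17eKO, with 7273 reads in its shallowest library. The genotypes overlapped, since Sox17eKO replicate 2 was below WT replicate 1. The fitted difference was 0.17 on the log2 scale (95% interval -0.02 to 0.36), and Postn did not pass.

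Tnc, the gene of the large oligomeric glycoprotein tenascin-C, spans chr4:63959785-64047015 on the minus strand. Its level was 124 and 93.4 CPM in WT and 135 and 138 CPM in Sox17eKO. Both Sox17eKO pools were above both WT pools, and the gap between the WT pools (a ratio of 1.33, 95% counting interval 1.22 to 1.45) was wider than that from WT replicate 1 to Sox17eKO replicate 1 (1.09, 1.02 to 1.16). The fitted difference was 0.32 on the log2 scale (95% interval 0.075 to 0.56), and Tnc did not pass over all genes. It was 0.55 without WT replicate 1, where Tnc passed, and 0.13 without WT replicate 2, where it did not. Tnc also passed when every gene with a read was tested (log2 fold change 0.32).

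Sparc and Sparcl1 encode related collagen-binding and counter-adhesive glycoproteins. Sparc (chr11:55394500-55423183, minus strand) was at 975.2 and 998.4 CPM in WT and 827 and 898 CPM in Sox17eKO, with both Sox17eKO pools below both WT pools. The fitted difference was -0.19 on the log2 scale (95% interval -0.36 to -0.025), and Sparc did not pass over all genes. Sparcl1 (chr5:104079111-104113733, minus strand) was at 61.0 and 54.4 CPM in WT and 61.2 and 62.5 CPM in Sox17eKO. The Sox17eKO pools were the higher, by 0.01 on the log2 scale in the closest pair, and the log2 fold change of 0.097 (95% interval -0.079 to 0.27) did not pass.

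The thrombospondins are calcium-binding glycoproteins that form trimers (Thbs1 and Thbs2, known inhibitors of vessel growth) or pentamers (Thbs4). Thbs1 (chr2:118111876-118127133, plus strand) was at 447 and 347 CPM in WT and 451 and 446 CPM in Sox17eKO. WT replicate 2 stood apart while the other 3 pools lay close together. The log2 fold change of Thbs1 was 0.17 over all pools, 0.37 without WT replicate 1, where it passed, and 0.002 without WT replicate 2. Thbs2 (chr17:14665500-14694235, minus strand) was at 61.5 and 56.2 CPM in WT and 51.2 and 59.5 CPM in Sox17eKO, with overlapping genotypes and a log2 fold change of -0.09 (95% interval -0.28 to 0.10). Thbs4 (chr13:92751590-92794818, minus strand) was at 25.1 and 20.5 CPM in WT and 24.3 and 28.7 CPM in Sox17eKO. Its genotypes also overlapped, and its log2 fold change was 0.21 (95% interval -0.05 to 0.47).

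Across the 8 members, Spp1 was the 1 that passed, and it was lower. Over all genes tested 5.35% passed, 4.13% being higher and 1.22% lower, and because Spp1 was known to be lower when the set was drawn up nothing is read from this count. The Sox17eKO pools were both below the WT pools for Spp1 and Sparc and both above for Tnc and Sparcl1, 4 of 8, against 52.8% of all genes tested. The median log2 fold change was 0.13 for the members and -0.01 for all genes tested. WT replicate 2 was the lowest of the 4 libraries for Postn, Tnc, Thbs1, Sparcl1 and Thbs4. The share of all genes tested that were lowest there was not counted, so nothing is read from this.

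**Figure D3:**
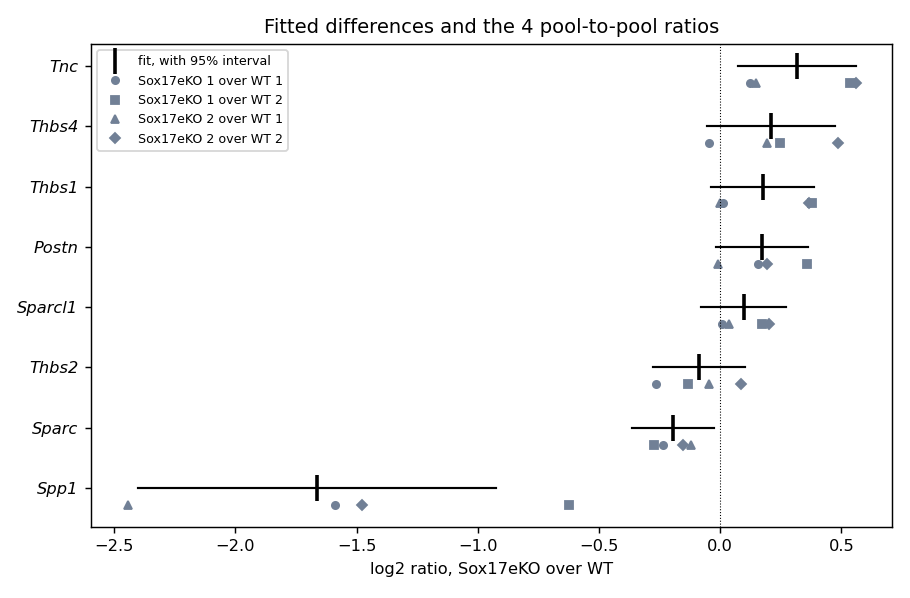
Fitted log2 ratio of Sox17eKO over WT for each member (black tick, with its 95% interval) and, in grey below it, the 4 ratios of a single Sox17eKO pool to a single WT pool. The ratios of Spp1 run from -2.44 to -0.62, while those of the other members lie between -0.27 and 0.56.

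Other matricellular proteins and relatives of the members formed a list of 22 genes, of which 14 could be tested. None passed, 1 (Ccn2) had an unadjusted p under 0.05, and limma-voom called none. DESeq2 called none of the 5 for which it gave an adjusted p and gave none for the other 9. Ccn2, which encodes connective tissue growth factor, was at 77.3 and 72.0 CPM in WT and 107 and 82.6 CPM in Sox17eKO (log2 fold change 0.33, edgeR adjusted p = 0.0882). Without Sox17eKO replicate 2 it passed, with a log2 fold change of 0.51. Ccn3, a related CCN protein, was at 6.59 and 8.73 CPM in WT and 4.90 and 6.23 CPM in Sox17eKO (log2 fold change -0.41, edgeR adjusted p = 0.256). Comp and Thbs3, the thrombospondins closest to Thbs4 in build, did not pass (log2 fold changes -0.72 and 0.11), and neither did Tgfbi, the relative of periostin (0.12). The list's median log2 fold change was -0.05.

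Spp1 belongs to a family of acidic integrin-binding phosphoproteins of bone and teeth, whose genes sit in a row on chromosome 5. The family members Dspp, Dmp1, Ibsp and Mepe lie between Sparcl1 and Spp1, with Ibsp 123.6 kb from Spp1 and Sparcl1 321.4 kb from it. All 4 had 0 reads in all 4 libraries, while Sparcl1 at one end of the row had 430 to 1375 reads and Spp1 at the other 26 to 83. A count of 0 allows up to 3 reads per library, which is 0.136 to 0.379 CPM here, below the lowest Spp1 level of 1.18 CPM.

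Receptors that bind the members formed a list of 20 genes, 19 of them tested. Sdc1 fell and Cacna2d1 rose, 2 of 19 beside the 5.35% of all genes that passed, and 8 had an unadjusted p under 0.05. Sdc1, the heparan sulfate proteoglycan syndecan-1, was at 69.3 and 77.9 CPM in WT and 53.9 and 52.9 CPM in Sox17eKO (log2 fold change -0.46, standard error 0.08, edgeR adjusted p = 0.00376). Cacna2d1, a calcium channel subunit that also serves as a thrombospondin receptor, was at 59.0 and 50.6 CPM in WT and 72.3 and 72.2 CPM in Sox17eKO (log2 fold change 0.39, standard error 0.09, edgeR adjusted p = 0.0134). For both genes the genotypes did not overlap, as was the case for 52.8% of all genes tested. Without WT replicate 2 neither passed (log2 fold changes -0.38 and 0.29, edgeR adjusted p = 0.084 and 0.205), and Cacna2d1 also did not pass without Sox17eKO replicate 1. When each library was corrected for smooth trends on exonic length and genomic span, fitted together, the log2 fold change of Cacna2d1 was 0.14. Cacna2d1 then did not pass (edgeR adjusted p = 0.468), while Sdc1, at -0.41, did.

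The receptors of osteopontin itself did not pass. Cd44 had levels of 79.3 and 75.2 CPM in WT and 90.7 and 84.0 CPM in Sox17eKO (log2 fold change 0.17, edgeR adjusted p = 0.218). The integrin subunits Itgav, Itgb3, Itgb5, Itga4, Itga9 and Itgb1 had log2 fold changes of 0.18, -0.12, -0.07, 0.27, 0.11 and -0.002. Of these Itga4 came closest to passing (edgeR adjusted p = 0.0669). The thrombospondin receptors Cd36 and Cd47 were at -0.005 and -0.09. The list's median log2 fold change was 0.11. Itgb6 had too few reads to be tested.

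Matrix proteins that bind the members, with enzymes and growth factors that act with them, formed a list of 15 genes, 12 of them tested. None passed in edgeR or limma-voom, or in DESeq2 where it gave an adjusted p (all but 1), and 5 had an unadjusted p under 0.05. Lox, the lysyl oxidase that crosslinks collagen and elastin, was at 55.1 and 53.9 CPM in WT and 41.0 and 48.8 CPM in Sox17eKO (log2 fold change -0.28, edgeR adjusted p = 0.0967), and it passed without Sox17eKO replicate 2 (-0.41). For Mmp14, a membrane-bound matrix metalloproteinase, the fitted log2 difference was -0.21 (edgeR adjusted p = 0.132). The collagen genes Col1a1 and Col3a1 were at -0.18 and -0.01 and fibronectin (Fn1) at 0.08. Mmp3 and Mmp7, enzymes that cleave osteopontin, had no reads. Of 7 transcription factors reported to act on a member gene none passed in edgeR or limma-voom, DESeq2 gave no adjusted p for 3 and called none of the others, and 1 (Twist1) had an unadjusted p under 0.05. They included Twist1, an activator of Postn, at -0.22 (edgeR adjusted p = 0.137), Smad3 at 0.11, and Runx2, the bone factor that activates Spp1, at 0.931 and 0.38 CPM in WT and 0.414 and 0.819 CPM in Sox17eKO.

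**Figure D4:**
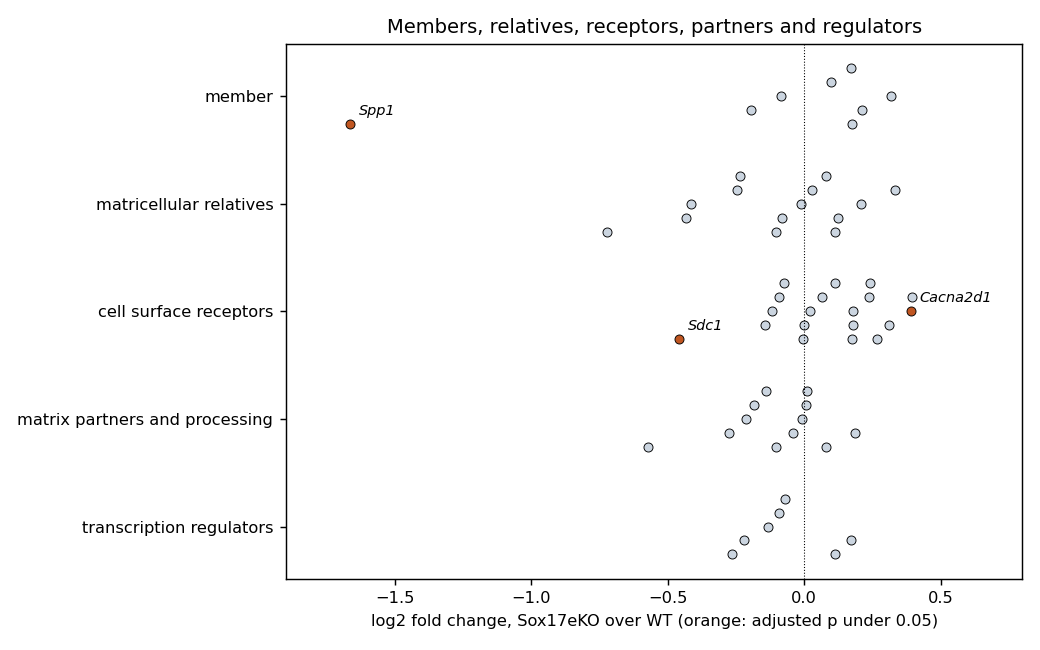
Log2 fold change of Sox17eKO over WT for each tested gene of the members, their relatives, their receptors, their matrix partners and processing enzymes, and transcription regulators, with genes at an adjusted p under 0.05 in orange and named. Spp1, Sdc1 and Cacna2d1 are the 3 orange points, and no gene of the other lists is past -1 on this axis.

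Markers of cell types that also make these proteins were examined beside the members. Macrophages are a known source of osteopontin. None of 12 macrophage markers passed in edgeR or limma-voom, DESeq2 gave no adjusted p for any, 1 (Lyz2) had an unadjusted p under 0.05, and none was at 0 reads. Their summed level was 154 and 163 CPM in WT and 149 and 145 CPM in Sox17eKO, lower in both Sox17eKO pools and within a narrower range than Spp1. Of the 12, 6 had a positive and 6 a negative log2 fold change, with a median of -0.03. Among them Csf1r, the receptor of the macrophage growth factor, was at 0.11, Cd68 at 0.15, Adgre1 (the F4/80 antigen) at -0.26 and Lyz2 at -0.26. Of 6 skeletal markers 3 could be tested and none passed, with a summed level of 53.0 and 48.1 CPM in WT and 51.4 and 58.3 CPM in Sox17eKO. None had an unadjusted p under 0.05, limma-voom called none, DESeq2 gave an adjusted p for 1 and did not call it, and the osteoblast genes Sp7 and Bglap were too low to be tested.

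Platelets store thrombospondin-1 in their granules. Of 7 platelet markers tested Itga2b fell (log2 fold change -0.59, edgeR adjusted p = 0.0243), and the summed level of the 8 listed was 33.8 and 29.5 CPM in WT and 22.1 and 21.4 CPM in Sox17eKO. Of 8 cushion mesenchyme markers Vcan and Pdgfra rose (0.52 and 0.32), and the summed level of 1976 to 2461 CPM in WT and 2899 to 3154 CPM in Sox17eKO was lowest in WT replicate 2, as were Postn and Tnc. Vcan alone made up most of that sum, at 1886 and 1456 CPM in WT and 2490 and 2306 CPM in Sox17eKO, and 3 of the 8 markers (Msx1, Snai2 and Hapln1) had a negative log2 fold change. With the length trend removed neither Vcan (0.31) nor Pdgfra (0.20) passed, Vcan did not pass in DESeq2, and Pdgfra did not pass without the robust option. Of 6 epicardial markers Upk3b and Lrrn4 fell (-0.35 and -0.53), with sums of 299 and 325 CPM in WT and 275 and 250 CPM in Sox17eKO, both lower. The summed levels of the erythroid, endothelial and smooth muscle lists were also lower in both Sox17eKO pools than in both WT pools. Of all single genes tested, 26.2% had this order, and the erythroid sum was mostly Hbb-y. The smooth muscle sum was mostly Acta2, and 3 of that list's 6 markers (Myocd, Smtn and Myh11) had a positive log2 fold change. Without WT replicate 2 none of the platelet, cushion or epicardial markers passed. In fits that kept the genes tested the count was also 0 for cushion markers without Sox17eKO replicate 1 (1 with the filter applied again), for epicardial markers without Sox17eKO replicate 2, and for platelet markers without WT replicate 1 or Sox17eKO replicate 2. The part that any of these cell types had in the members' levels was not tested.

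The genes with a pattern over the 4 libraries most like that of Spp1 were found by the root mean square distance between log2 levels, each centred on the gene's own mean, among 15551 genes of at least 1 CPM. C3, the central complement component, was nearest, at a distance of 0.25, with 17.8 and 12.5 CPM in WT and 5.241 and 3.002 CPM in Sox17eKO. Abcb1b, a drug efflux pump, followed at 0.35, with 10.3 and 6.71 CPM in WT and 3.03 and 3.18 CPM in Sox17eKO. The next 3 were 5330417C22Rik (0.39), Yipf7 (0.41) and the microRNA gene Gm44367 (0.42), none of which passed, and which had 8 to 42 reads per library. No other member was among the 5. The measure rests on 4 libraries. All 5 genes were lower in both Sox17eKO pools than in both WT pools, as were 26.2% of all genes tested. Spp1 has this order itself, so the search favours genes that share it.

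**Figure D5:**
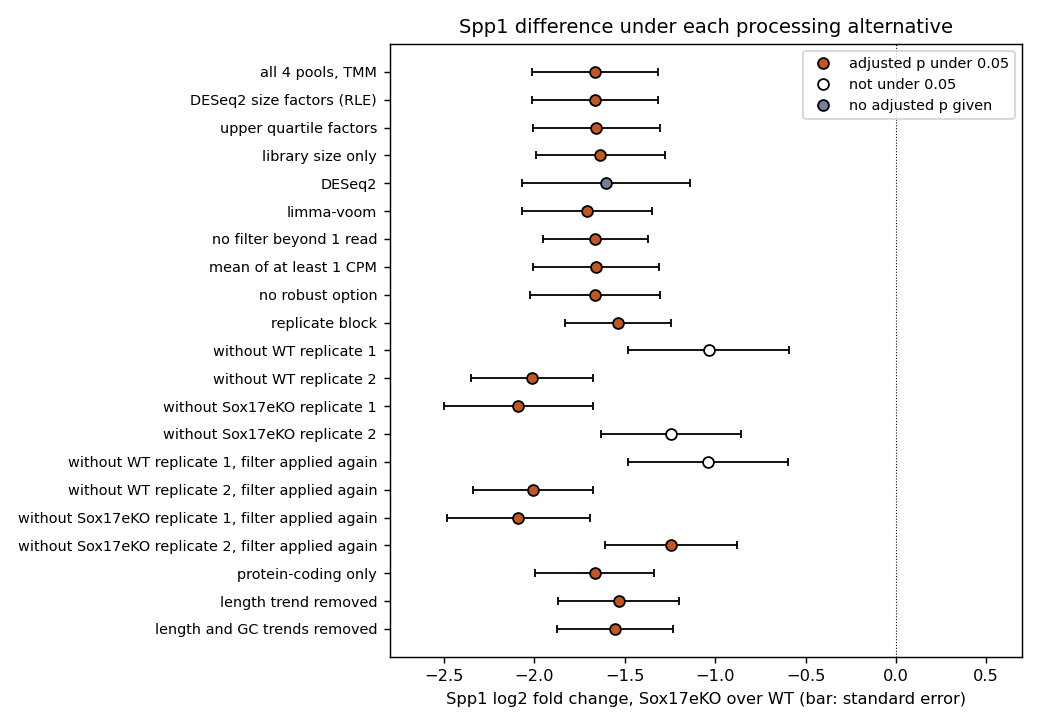
Fitted log2 fold change of Spp1 (Sox17eKO over WT, with its standard error) with all 4 pools and under each processing alternative, in orange where the adjusted p was under 0.05, white where it was not and grey where none was given. All points lie below 0, a sign that the selection of Spp1 and its non-overlapping pools largely fixed in advance. The weakest, -1.04, are the fits without WT replicate 1.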

How the data were processed

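The data were RNA read counts per gene in 4 libraries of mouse outflow tract, 2 WT and 2 Sox17eKO. The authors deposited raw counts per Ensembl gene, and TopHat2, HTSeq and mm10 are named per the submitters' processing notes; versions, annotation release and strand setting are not given in the sources used here. Of 45706 genes, 45143 matched GENCODE M21 (GRCm38, which mm10 names), the source of symbols, positions and exonic lengths. HTSeq's summary lines entered neither the library sizes nor the tests. Reads outside features were 20.4% to 34.1% and ambiguous reads 3.38% to 6.22% of uniquely placed reads. Alignments set aside as not unique were 74.2% and 79% of all that HTSeq counted in WT replicates 1 and 2. In Sox17eKO replicates 1 and 2 they were 72.8% and 72.5%. As a check for a library deposited more than once, the 2 pools of each genotype were compared by chi-square over genes (chi-square over its degrees of freedom 4.77 for WT, 6.01 for Sox17eKO), which sets them against counting noise only; that they are separate pools comes from the labels.

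The main test was edgeR 4.0.16's quasi-likelihood test (R 4.3.3, TMM factors, filterByExpr, robust fit, prior count 0.125, genotype as the only term), with Benjamini-Hochberg adjustment over 16570 genes and a threshold of 0.05. Standard errors come from F (absolute log2 fold change over its root). Counting intervals (95%, exact) cover counting error only, since PCR copies among the reads could not be removed by molecular identifiers. The members, lists and alternatives were chosen with earlier results of these data known. Named were all members, Sox17, the called genes of each other list (up to 4, or the 2 with the smallest p), and the 5 genes nearest to Spp1, except 1 marker gene that is not reported here; other list genes in the text were named after their values were seen. Alternatives were DESeq2 1.42.0, limma-voom (limma 3.58.1), other scalings and filters, no robust option, leaving out each library, and a replicate block. Protein-coding genes were also fitted alone and with smooth trends on length, or on length and GC, removed (mgcv 1.9.3). Length here stands for exonic length and genomic span, fitted together. On simulated counts for the same 16570 genes, a change of 1.5-fold was called in 54% of the genes given it, 2-fold in 92%, 3-fold in 96% and 4-fold in 100%, and 3.93% of calls were false. Changes were given only to genes of at least 1 CPM. The simulated spread followed the fitted trend on level, with no spread of a gene's own, no deviating pool and no length trend. These shares may therefore not hold for the real libraries. Protein sequences were not used here.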

Additional observations from a re-analysis of the deposited data

Results flagged for a closer look

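The share of uniquely placed reads outside annotated features, which no comparison above uses, was 34.1% and 29.5% in Sox17eKO replicates 1 and 2, above the 22.2% and 20.4% of WT replicates 1 and 2. Its part in the members' levels was not tested. No group had the 4 samples that a check for single outlying samples needs.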

How the results depend on the processing

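The log2 fold change of Spp1 was below 0 in all 20 alternatives and ranged from -2.09 to -1.04. Spp1 was selected on its lower level, and both Sox17eKO pools were below both WT pools. Its constant sign is therefore no support for the difference. With 1 library left out, Spp1 passed in 2 of the 4 such fits that kept the genes tested (edgeR adjusted p = 0.184 without WT replicate 1 and 0.0752 without Sox17eKO replicate 2). The alternative that applied the filter again with 1 library left out was chosen after seeing the data; there Spp1 passed in 3 of 4. DESeq2 gave Spp1 a log2 fold change of -1.60 (unadjusted p = 0.000565) and no adjusted p, so its count of 0 members holds no lost call. Tnc passed without WT replicate 1 and, at 0.32, with no filter beyond 1 read, and with 1 library left out ranged from 0.13 to 0.55. Thbs1 ranged from 0.002 to 0.37 and Thbs2 from -0.20 to 0.013, its sign turning without Sox17eKO replicate 1. With the length trend removed the values were -1.53 for Spp1, 0.22 for Tnc, 0.09 for Postn and -0.15 for Sparc.

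Members called numbered 2 with no filter beyond 1 read and 0 to 2 with 1 library left out. Relatives called numbered 1 with no filter beyond 1 read, 1 with the replicate block and 0 to 2 with 1 library left out. Receptors called numbered 4 with no filter beyond 1 read, 4 with the replicate block, 1 with the length trend removed, 1 with both trends removed and 0 to 5 with 1 library left out. Matrix partners called numbered 1 with the replicate block, 1 with either trend removal and 0 to 1 with 1 library left out. Transcription factors called numbered 1 with both trends (length and GC) removed and 0 to 1 with 1 library left out.

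Genes called over the whole table numbered 409 with DESeq2 (300 higher, 109 lower), 1364 with no filter beyond 1 read (387 lower), 173 with the length trend removed (97 higher, 76 lower) and 291 once GC was corrected too (143 higher). Lower calls numbered 111 with library size only and 105 with no robust option. Higher calls made up 77.2% of calls with TMM, 87.4% with library size only, 56.1% with the length trend removed and 49.1% with both removed. With 1 library left out 103 to 970 genes were called, 90 to 641 higher and 13 to 329 lower. With the filter applied again these were 192 to 1219, 172 to 756 and 20 to 463, and without Sox17eKO replicate 1 they were 472, 387 and 85. With the replicate block 1684 genes were called, 1107 higher and 577 lower. Over the genes as a whole, same-numbered pools did not deviate together (correlation of deviations -0.041). This correlation cannot tell whether they share more than a number in part of the genes. Marker genes without a call turned sign with 1 library left out: Sox10 at 0.23 and 0.22 (range from -1.35) and Acan at 0.15, 0.14 and 0.061. The causes were not tested. Low read counts limit Spp1 most, with 26 reads in WT replicate 2, the shallowest library, and 26 in Sox17eKO replicate 2, the deepest.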

Other observations

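The summed level of liver markers, a check for tissue carried over in dissection, differed between pools rather than between genotypes. It was 76.2 and 13.9 CPM in WT replicates 1 and 2 and 7.45 and 130 CPM in Sox17eKO replicates 1 and 2. Afp, the fetal serum protein alpha-fetoprotein, was at 60.6 and 8.73 CPM in WT and 3.38 and 108 CPM in Sox17eKO. It made up most of the sum except in Sox17eKO replicate 1. Alb was higher and Ahsg lower in both Sox17eKO pools than in both WT pools. None of the 8 liver genes passed, none had an unadjusted p under 0.05, limma-voom called none, and DESeq2 gave an adjusted p for 1 and did not call it. The part of such tissue in the members' levels was not tested.

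All 10 erythroid markers had a lower fitted level in Sox17eKO, and Hbb-y, an embryonic globin, fell (log2 fold change -0.56, edgeR adjusted p = 0.0288). Hbb-y did not pass in 10 of 20 alternatives, among them DESeq2, limma-voom, protein-coding genes only and both trend removals, and it passed in 1 of the 4 fits that left out a library and kept the genes tested. Their summed level was 2585 and 3469 CPM in WT and 1685 and 2296 CPM in Sox17eKO. Reads shared between globin genes leave single globin levels uncertain. Of 8 endothelial markers Tie1 fell (-0.34), of 6 smooth muscle markers Cnn1 fell (-0.35) and Myocd rose (0.31), and of 8 cardiomyocyte markers none passed in edgeR or limma-voom, 5 had an unadjusted p under 0.05 and DESeq2 called 2. Without WT replicate 2 none of the erythroid, endothelial or smooth muscle markers passed. Tie1 also did not pass without Sox17eKO replicate 1, nor did either smooth muscle gene without Sox17eKO replicate 1 or 2, although both passed without Sox17eKO replicate 1 when the filter was applied again. Of the smooth muscle genes, 1 (Cnn1) passed without WT replicate 1, and neither passed with no robust option or with the length trend removed. None of the 3 Schwann and neural crest markers tested passed in edgeR or limma-voom or had an unadjusted p under 0.05, and DESeq2 gave no adjusted p for them.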
